A study of Mus musculus with 12 samples.

Results

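The genes described here are 67 interferon-induced genes and interferon pathway transcription factors measured in mouse liver, out of 19084 genes on the array. They were taken by symbol: the guanylate-binding proteins (Gbp), the genes named Ifi, the interferon regulatory factors (Irf), the Isg, Oas, Mx, Irgm, Iigp and Stat genes, and Igtp, Usp18, Rsad2, Bst2 and Ubd. The symbol alone decided membership, but the set was chosen with earlier results of these data known. Together they had 74 probes, 6 genes had more than 1, and the brightest probe stood for its gene. The label of the set holds for names and not for induction in every case: Isg20l2, for example, carries an Isg symbol but is known as a nuclear exonuclease of ribosome production.

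The study asked how pure total flavonoids from Citrus (PTFC, a plant extract) act on fatty liver in male C57BL/6 mice, on 12 single-colour arrays with 3 per group. The ND group ate a normal diet with 12.3% fat for 24 weeks, and the HFD16 and HFD24 groups ate a high-fat diet with 36.1% fat, 2% cholesterol and 10% lard for 16 and 24 weeks. The PTFC group ate that high-fat diet for 24 weeks in all, with the extract at a daily intragastric dose of 50 mg per kg for the last 18 weeks, after 6 weeks of diet alone. The other groups had saline in its place. At collection HFD16 animals were 23 to 25 weeks old, and those of the HFD24 and PTFC groups 31 to 33 weeks. The ND mice were 30 to 32 weeks old for replicates 2 and 3 and 31 to 33 weeks for replicate 1. Diet time and age therefore cannot be told apart where HFD16 is compared. No group received the extract on the normal diet, the extract is a mixture, and all mice were males fasted for 12 hours. The labels name 6 mice per group without tying an array to an animal, so p-values here rest on the spread among samples of a group, part or all of which can be technical.

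Interferons are secreted proteins that warn tissues of infection. Type I interferons and interferon gamma bind their own receptors, and the kinases attached to these receptors phosphorylate STAT proteins. A complex that holds STAT2 and IRF9 binds the interferon-stimulated response element (ISRE) in promoters, whereas STAT dimers bind the gamma-activated site (GAS). The genes switched on in this way encode effectors that sense foreign nucleic acids, block viral replication or attack the vacuoles in which parasites live, and in liver both hepatocytes and resident or recruited immune cells can express them.

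The elements through which the pathway is known to act were looked for in the promoters, because the genes differed in response within families that share them. RefSeq (GRCm38.p6) held a promoter window for 56 of the 67 genes, 69 windows in all, each of 300 bases from 250 before to 50 after the start of the gene. The ISRE core was searched on both strands as GAAA, any 2 bases and GAAA again, and it lay in 26 of these 69 windows (37.7%), against 1131 of 32851 windows of all genes (3.44%). The GAS was searched as TTC, any 3 bases and GAA, which reads the same on both strands, and it lay in 14 of 69 (20.3%), against 2726 of 32851 (8.30%). A match is a description of letters, not a measured binding site, and the search strings can overlap.

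The fragments below lead up to the start of the gene, 5′ to 3′ on the gene's strand, with the letters that match the ISRE core in capitals, or those of the GAS for Irf1 and Irf8. The fragments of Bst2, Igtp and Irgm2 also hold a GAS. It is left in lower case, except that its last letters GAA in Bst2 belong to the ISRE core too and are capitals. Isg15 held a run of 3 overlapping ISRE cores beginning 78 bases before its start, at chr4:156200850-156200921 (minus strand), and Bst2 held 2 overlapping cores, at chr8:71537562-71537627 (minus strand).
Isg15: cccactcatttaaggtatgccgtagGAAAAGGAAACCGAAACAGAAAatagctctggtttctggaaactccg
Bst2: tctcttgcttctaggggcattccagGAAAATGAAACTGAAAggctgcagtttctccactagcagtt

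For Gbp2, Gbp3 and Gbp7, neighbours in 1 cluster of guanylate-binding protein genes, the core stood on the opposite strand and so reads as TTTC repeats. They are shown because these genes had some of the larger responses to diet. They lie at chr3:142620579-142620638 (plus strand), chr3:142559974-142560039 (plus strand) and chr3:142530258-142530317 (plus strand).
Gbp2: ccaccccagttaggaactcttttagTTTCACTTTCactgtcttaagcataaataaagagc
Gbp3: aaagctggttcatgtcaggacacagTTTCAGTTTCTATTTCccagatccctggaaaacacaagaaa
Gbp7: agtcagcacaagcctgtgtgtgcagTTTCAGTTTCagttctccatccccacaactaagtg

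Igtp and Irgm2 are neighbouring immunity-related GTPase genes whose fragments were the same at 57 of 59 aligned bases (96.6%), both with an ISRE core and, upstream of it, a GAS that reads TTCTAGGAA in Igtp and TTCCAGGAA in Irgm2. They are shown because Igtp passed the test for diet and Irgm2, with all arrays, did not. They lie at chr11:58199497-58199555 (plus strand) and chr11:58214888-58214947 (plus strand). Irgm1, at chr11:48871421-48871475 (minus strand), belongs to another cluster.
Igtp: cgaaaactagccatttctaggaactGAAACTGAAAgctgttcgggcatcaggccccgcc
Irgm2: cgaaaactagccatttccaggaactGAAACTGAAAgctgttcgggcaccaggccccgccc
Irgm1: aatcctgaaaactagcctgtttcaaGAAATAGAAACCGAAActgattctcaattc

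The fragments of Ifi213, Ifi214 and Oas3 are shown because an ISRE core stood in genes that passed and in genes that did not. The ISRE core GAAATCGAAA of Ifi213, which passed the test for diet, was also that of Ifi214, which did not, in fragments the same at 42 of 60 bases (70.0%). Ifi208, in the same cluster, carried this core within bases that read the same as the whole Ifi213 fragment below. Ifi208 did not pass, with differences of -0.56 ± 0.32 in HFD24 and -0.48 ± 0.32 in HFD16 against ND. Oas3 carried a core and its probe level did not pass in any comparison. The fragments lie at chr1:173599311-173599370 (minus strand), chr1:173536002-173536061 (minus strand) and chr5:120777700-120777759 (minus strand).
Ifi213: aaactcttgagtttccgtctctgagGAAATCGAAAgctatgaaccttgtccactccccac
Ifi214: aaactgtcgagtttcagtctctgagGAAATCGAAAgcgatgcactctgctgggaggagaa
Oas3: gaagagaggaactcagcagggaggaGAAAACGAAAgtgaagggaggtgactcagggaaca

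GAS elements are shown for Irf1 and Irf8, which passed in different comparisons, Irf1 in PTFC against HFD24 and Irf8 with diet, at chr11:53769899-53769957 (plus strand) and chr8:120736162-120736238 (plus strand).
Irf1: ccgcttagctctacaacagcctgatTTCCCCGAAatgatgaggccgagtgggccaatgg
Irf8: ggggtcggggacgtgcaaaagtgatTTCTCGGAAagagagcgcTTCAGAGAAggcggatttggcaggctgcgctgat

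**Figure D1:**
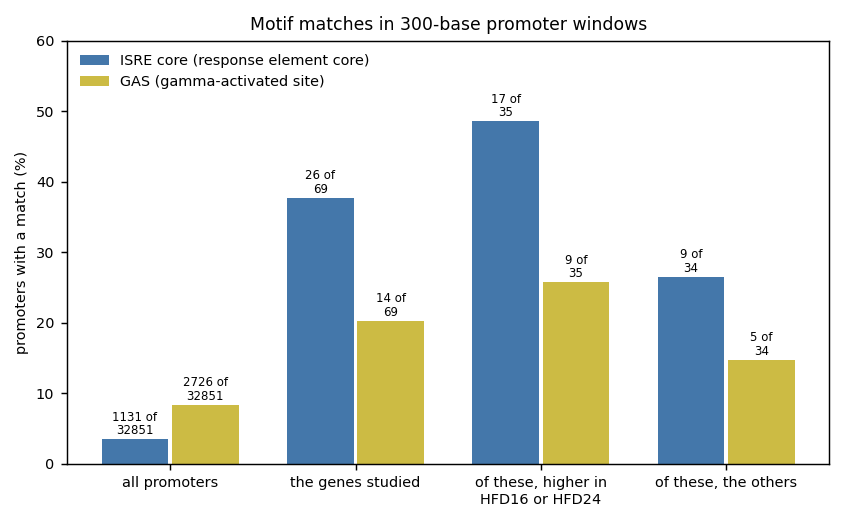
Share of 300-base promoter windows (y axis, percent) with an ISRE core or a GAS, for all promoters, for the genes studied, and for these genes split by whether they were higher in HFD16 or HFD24 than in ND. The ISRE core was in 17 of 35 windows of genes that were higher with diet and in 9 of 34 of the others; the split uses the measured values and was not tested.

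Levels are given as log2(intensity + 1) after quantile normalization, and 3 values in a row are replicates 1 to 3. A difference between groups is on the same scale and carries its standard error (SE), and a gene passed at an adjusted p under 0.05, with limma and the Benjamini-Hochberg method over all 19084 genes. The level of 1 probe says nothing against that of another. On this scale 7 of the 67 genes were in the dimmest 25% of genes in every group (Ifi202b, Ifi213, Ifi214, Ifi44l, Ifitm10, Oas1g and Oas1h), and differences of dim genes are understated.

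The array HFD16 replicate 1 stood apart from the other HFD16 arrays in these genes. It was the lowest of its group in 46 of 67 genes, and in 30 of the 32 that passed for HFD16 against ND. The mean over the 67 genes was 10.38 on it against 11.17 and 11.10 on the other HFD16 arrays, 9.88 to 9.94 on the ND arrays, 10.78 to 11.09 on the HFD24 arrays and 10.20 to 10.44 on the PTFC arrays. Its mean over 13 monocyte and macrophage markers was low too, at 10.51 against 12.82 and 12.06. Without it 40 of the 67 genes passed for HFD16 against ND: 31 of the 32, all but Stat5b, and Gbp5, Ifi209, Irf4, Irgm2, Isg20, Oas2, Oasl2, Stat2 and Usp18. Where its removal moved a called difference by more than 1.5-fold, the value without it is also given.

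Hepatocyte markers identified the tissue: the mean of 12 such genes lay between 17.39 and 17.77 on all 12 arrays, and 1 of them was lower and none higher in HFD24 than in ND. In the 11 lists of cell type markers, with 124 genes, 63 were higher (50.8%, against 10.0% of all genes) and 10 lower (8.06%, near the 8.29% of all genes) in HFD24 than in ND, and 3 were higher and 15 lower in PTFC than in HFD24 (2.42% and 12.1%, against 2.94% and 3.04% of all genes). All 13 monocyte and macrophage markers were higher, their mean being 9.40 to 10.16 in ND, 12.08 to 12.76 in HFD24 and 11.24 to 11.49 in PTFC. Of 19 T and NK cell markers 6 were higher and 1 lower, with means of 7.80 to 7.98 in ND, 8.65 to 8.95 in HFD24 and 8.00 to 8.27 in PTFC. Of 10 Kupffer cell markers 7 were higher, with means of 10.56 to 11.70 in ND and 12.30 to 12.96 in HFD24, and so were 7 of 10 markers of conventional dendritic cells, with means of 7.34 to 7.76 in ND and 8.65 to 8.84 in HFD24. Of 12 stellate cell markers 10 were higher and 1 lower, with means of 8.93 to 9.37 in ND, 10.62 to 10.75 in HFD24 and 9.61 to 10.46 in PTFC. Of 7 plasmacytoid dendritic cell markers 4 were higher and none lower in HFD24 than in ND. Of 12 neutrophil markers 6 were higher and 1 lower. Of 13 endothelial markers 7 were higher and none lower, and none passed in PTFC against HFD24. These lists of immune, stellate and endothelial cells rose with diet, as did many of the genes described here. The lists of B cells and bile duct cells differed. Of 9 B cell markers 3 were higher and 3 lower in HFD24 than in ND. Of 7 bile duct markers 3 were lower and none higher. In PTFC the Kupffer cell mean was 11.517 to 12.239 and the conventional dendritic cell mean 7.585 to 7.863. The part of the lists in the results was not tested. In whole liver, fewer cells of a type and less RNA per cell cannot be told apart.

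High-fat diet went with higher levels of many of these genes and a lower level of none that passed. At 24 weeks, 31 of the 67 genes were higher in HFD24 than in ND (46.3%), against 10.0% of all genes, and none was lower, against 8.29%. The median difference over the 67 genes was 0.69, against -0.06 over all genes. In 42 of the 67 genes all HFD24 arrays lay above all ND arrays, against 15.5% of all genes, and in none did they all lie below. At 16 weeks, 32 genes were higher than in ND (47.8%), again against 10.0% of all genes, and none was lower, against 8.11%, with a median difference of 0.77. All HFD16 arrays lay above all ND arrays in 38 genes and below them in 2, against 16.9% and 18.9% of all genes and 35.8% in either direction. The largest differences at 24 weeks were those of Ubd, Gbp2, Ifitm6, Gbp2b and Gbp3, whereas no Stat gene and 2 of 9 Oas genes passed. Both comparisons share the ND arrays.

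The deposited values carried a mark of array scaling, a step of which each array's values were whole multiples, and its mean differed between groups: 1.31 ± 0.133 (SD, n = 3) in ND, 0.921 ± 0.213 in HFD16, 0.976 ± 0.137 in HFD24 and 0.947 ± 0.0872 in PTFC. With this step as a covariate, 6 of the 67 genes passed in HFD24 against ND in place of 31 (Bst2, Ifi27l2b, Ifitm2, Ifitm3, Ifitm6 and Oas1c), and 1 in HFD16 in place of 32 (Ifitm3). Over all genes, 1.89% then passed in HFD24 in place of 18.3%, and 0.519% in HFD16 in place of 18.1%. Among the 67, the genes that had passed kept a median of 83.8% of their difference in HFD24 and 77.1% in HFD16. Their median SE grew 1.37-fold and 1.49-fold.

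With the extract, fewer genes passed. Against HFD24, 9 of the 67 genes were lower in PTFC and 2 higher (16.4% in all), against 5.98% of all genes in either direction, 3.04% lower and 2.94% higher. The median difference was -0.58, against 0.01 over all genes. All PTFC arrays lay below all HFD24 arrays in 32 of the 67 genes, against 15.2% of all genes, and above them in 3, against 16.0%. The count of calls was unstable: it was 0 without HFD24 replicate 1, HFD24 replicate 2 or PTFC replicate 3, 1 without PTFC replicate 2, 6 without HFD24 replicate 3 or PTFC replicate 1, 7 without ND replicate 2 and 21 without HFD16 replicate 1. No gene kept its call in all 12 of these fits. Over all genes, 0.204% passed without HFD24 replicate 1, 1.22% without HFD24 replicate 2, 0.0576% without PTFC replicate 3 and 1.85% without PTFC replicate 2. The share was 2.31% without HFD24 replicate 3, 2.45% without PTFC replicate 1, 4.49% without ND replicate 2 and 7.96% without HFD16 replicate 1. At an unadjusted p under 0.05 limma gave 33 genes lower and 3 higher, against 12.3% and 12.1% of all genes.

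**Figure D2:**
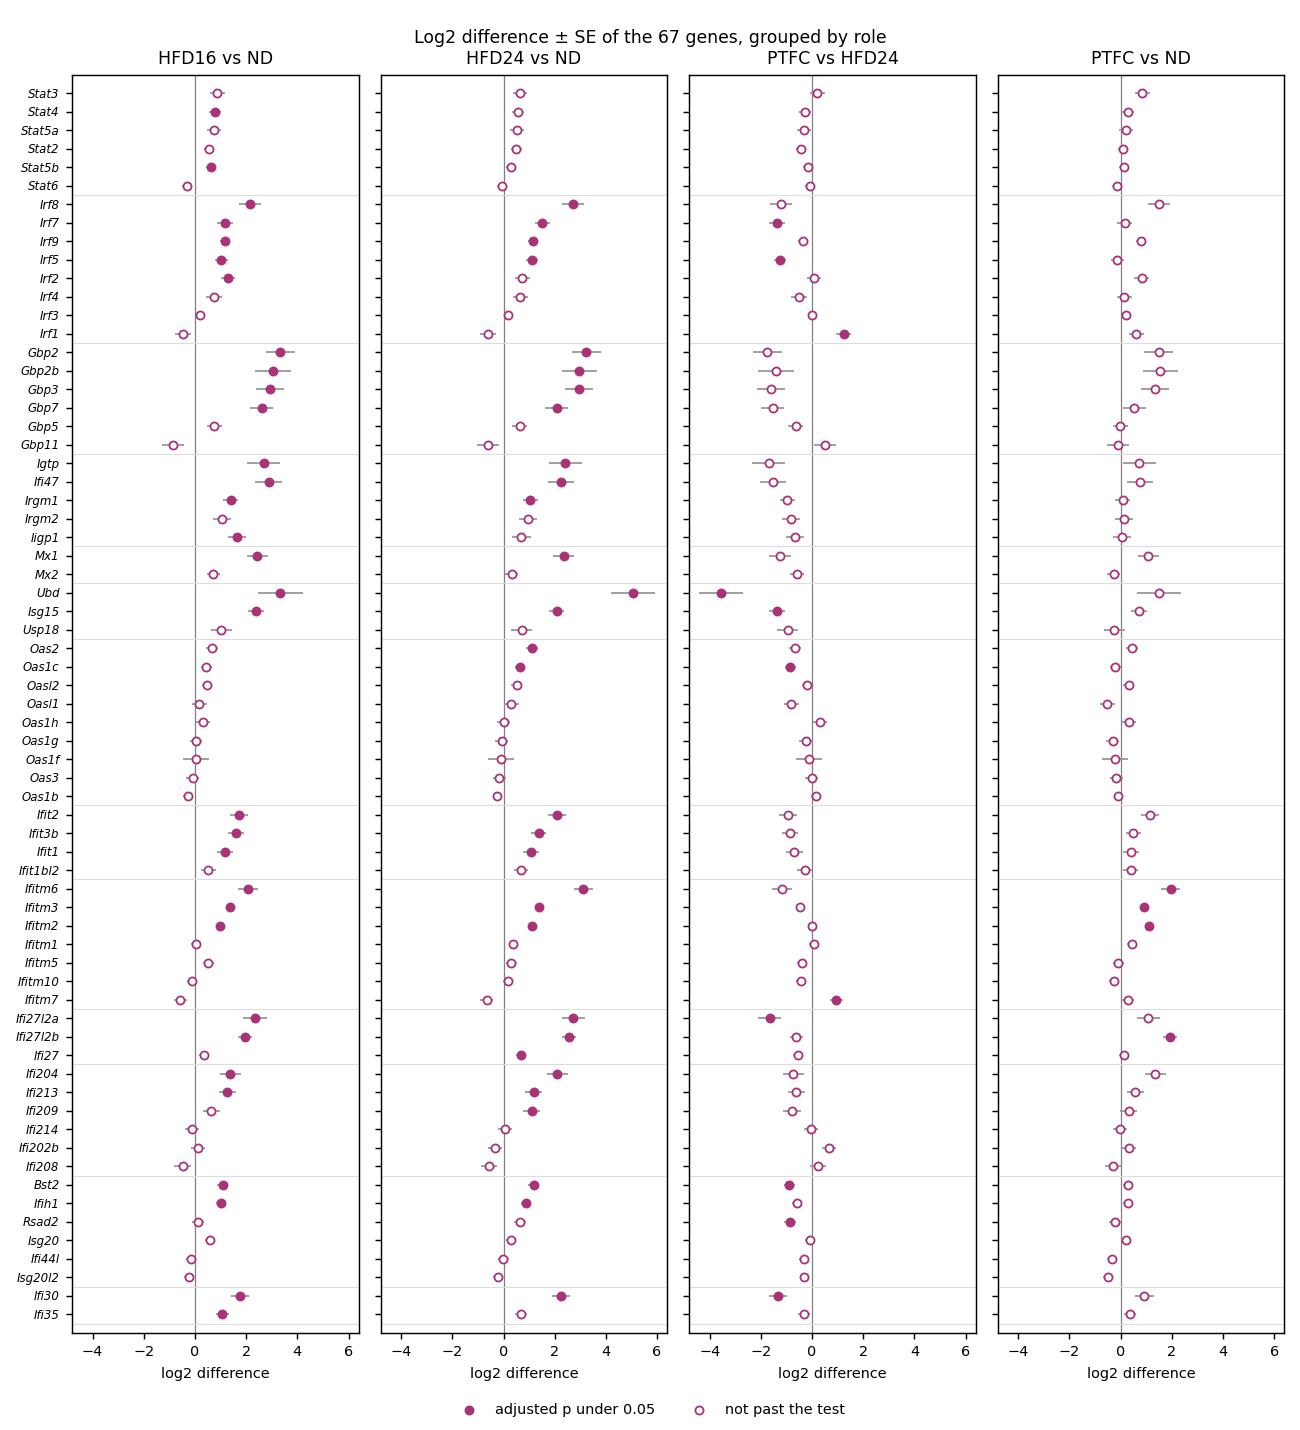
Log2 difference (x axis) of each of the 67 genes (y axis, grouped by family) in HFD16 against ND, HFD24 against ND, PTFC against HFD24 and PTFC against ND. Points are estimates, lines ± SE from the limma fit, and filled points passed at an adjusted p under 0.05: 32, 31, 11 and 4 genes.

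Among the STAT transcription factors, none of 6 passed in HFD24 against ND, with differences from -0.08 ± 0.20 for Stat6, which carries interleukin-4 and interleukin-13 signals, to 0.64 ± 0.29 for Stat3, which carries interleukin-6 signals. Stat2, the partner of IRF9 in the ISRE complex, read 11.41, 11.34 and 11.75 in ND and 11.84, 12.06 and 12.12 in HFD24, a difference of 0.51 ± 0.20 (adjusted p = 0.0949). Its arrays did not overlap between these groups, but the difference did not pass. At an unadjusted p under 0.05 limma gave 3 of the 6 higher in HFD24, against 15.4% of all genes.

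In HFD16 against ND, 2 of 6 Stat genes were higher (33.3%, against 10.0% of all genes). Stat4, which carries interleukin-12 signals in lymphocytes, differed by 0.77 ± 0.23 (adjusted p = 0.035). For Stat5b, the growth hormone responsive STAT of liver, the difference was 0.62 ± 0.19 (adjusted p = 0.0388). Both are weak calls: Stat4 lost its call without ND replicate 1 or 3 or HFD16 replicate 2 or 3, with an adjusted p up to 0.117, and Stat5b in 7 of 12 fits that left out an array, up to 0.10. With the replicate number as a block both lost it (adjusted p = 0.0511 and 0.0652). No Stat gene passed in PTFC against HFD24. In limma 0 had an unadjusted p under 0.05, against 12.1% higher and 12.3% lower of all genes.

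Of the 8 interferon regulatory factors, 4 were higher in HFD24 than in ND (50.0%, against 10.0% of all genes). In PTFC 2 were lower and 1 higher than in HFD24 (25.0% and 12.5%, against 3.04% and 2.94% of all genes). The family split by member. Irf7, the factor that amplifies type I interferon production, read 13.06, 12.78 and 13.15 in ND, 13.30, 14.62 and 14.58 in HFD16, 14.71, 14.64 and 14.20 in HFD24 and 13.29, 13.39 and 12.79 in PTFC. All HFD24 arrays were above all ND and all PTFC arrays, and the PTFC arrays overlapped those of ND. It rose by 1.52 ± 0.30 in HFD24 over ND (adjusted p = 0.0048) and fell by 1.36 ± 0.30 in PTFC against HFD24 (adjusted p = 0.0279), the latter lost without HFD24 replicate 1 or 2 or any 1 PTFC array (up to 0.147).

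Irf5, a factor of Toll-like receptor signalling in myeloid cells, read 12.09, 11.65 and 11.75 in ND, 12.22, 13.32 and 13.06 in HFD16, 12.92, 13.12 and 12.82 in HFD24 and 11.78, 11.69 and 11.64 in PTFC. The 3 PTFC values were close together and overlapped those of ND. The difference was 1.12 ± 0.24 for HFD24 against ND (adjusted p = 0.00681) and -1.25 ± 0.24 for PTFC against HFD24 (adjusted p = 0.0195), the latter lost without HFD24 replicate 1, HFD24 replicate 2 or PTFC replicate 3, with an adjusted p up to 0.104.

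Irf8, which directs the development of macrophages and dendritic cells, had the largest diet difference of the family, with 7.89, 8.32 and 9.46 in ND and 11.16, 11.30 and 11.35 in HFD24. The 3 HFD24 values lay within a narrow range above all ND values. It rose by 2.72 ± 0.43 (adjusted p = 0.00163) and by 2.14 ± 0.43 in HFD16 (adjusted p = 0.00702). PTFC arrays read 10.50, 10.09 and 9.61, all below HFD24 and above ND, and neither difference passed (-1.20 ± 0.43, adjusted p = 0.109, against HFD24; 1.51 ± 0.43, adjusted p = 0.0844, against ND).

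Irf9, the DNA-binding part of the ISRE complex, rose by 1.15 ± 0.20 in HFD24 (adjusted p = 0.00222) and by 1.17 ± 0.20 in HFD16 (adjusted p = 0.00321). In PTFC it read 11.14, 10.96 and 11.07, below the HFD24 values of 11.60, 11.21 and 11.46 and above the ND values of 10.16, 10.10 and 10.55, and neither PTFC difference passed. Irf2, known as an antagonist of Irf1, passed in HFD16 against ND (1.29 ± 0.28, adjusted p = 0.00916) and not in HFD24 (0.74 ± 0.28, adjusted p = 0.0832). Irf3, the constitutive factor behind nucleic acid sensors, and Irf4, a factor of lymphocytes, passed in no comparison with all arrays.

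Irf1, an early target of interferon gamma with the GAS shown above, went the other way in PTFC. It read 12.64, 12.43 and 11.90 in ND, 11.63, 11.41 and 12.54 in HFD16, 11.69, 11.91 and 11.53 in HFD24 and 13.23, 13.20 and 12.40 in PTFC. All PTFC arrays were above all HFD24 arrays, and the difference was 1.23 ± 0.31 (adjusted p = 0.0375). A second, much dimmer Irf1 probe gave -0.23 ± 0.34 (adjusted p = 0.719), and the call was lost when all probes of a gene were averaged, and without any 1 of the 3 HFD24 or 3 PTFC arrays.

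**Figure D3:**
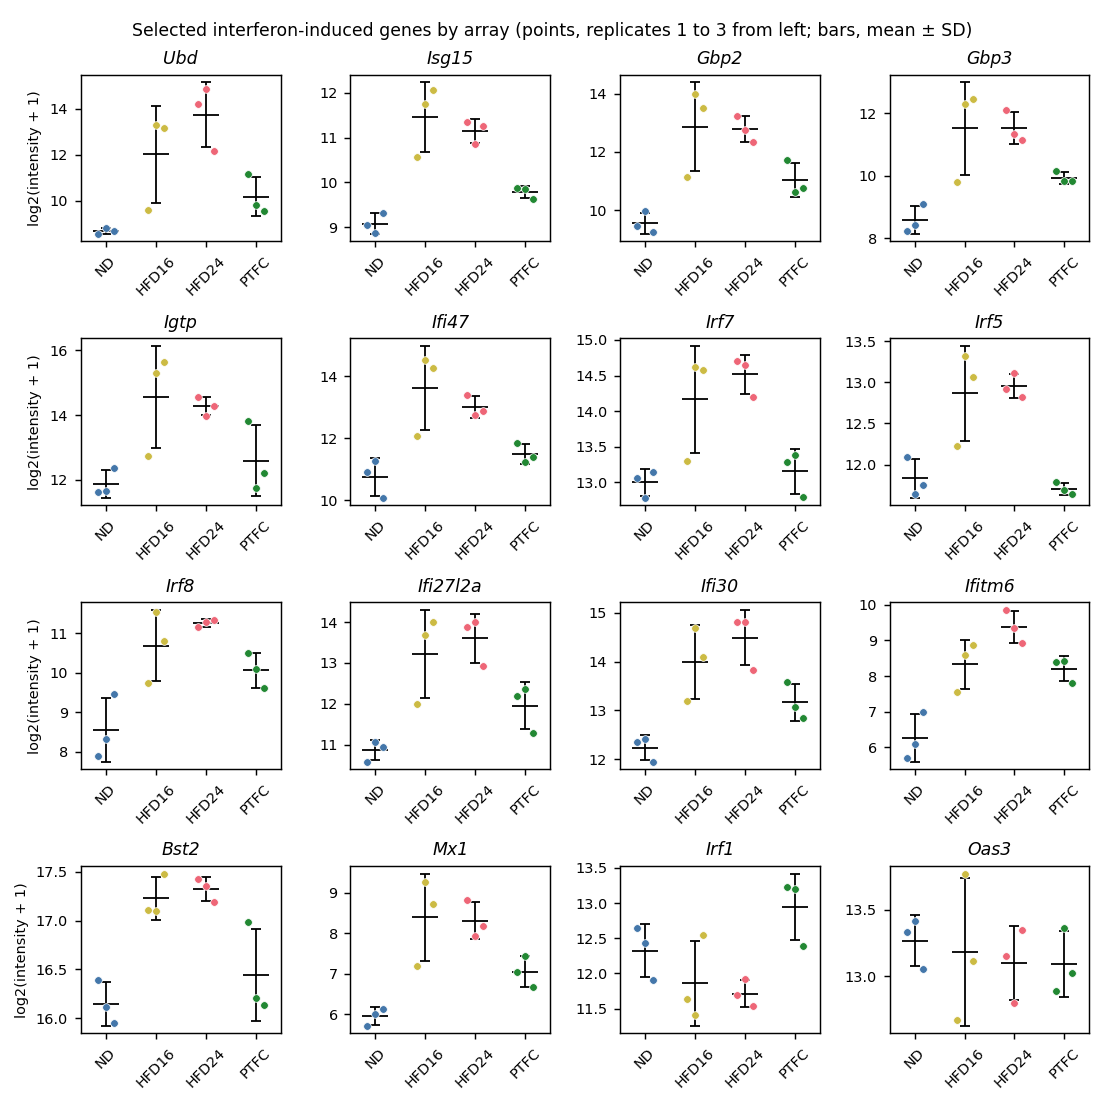
Level of 16 genes, as log2(intensity + 1) after quantile normalization (y axis, a scale per gene), on each array of the 4 groups (x axis); points are arrays, bars mean ± SD (n = 3). HFD16 replicate 1 lies below the other HFD16 arrays for Ubd, Isg15, the Gbp genes and Igtp, PTFC lies below HFD24 for most genes and above it for Irf1, and Oas3 differs little.

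The ubiquitin-like modifiers held the largest change of the set. Ubd encodes FAT10, a ubiquitin-like protein that is induced by interferon gamma and tumour necrosis factor and marks proteins for the proteasome. Its deposited intensities were 426, 500 and 365 in ND, 677, 10677 and 9183 in HFD16, 18183, 28900 and 4749 in HFD24 and 2356, 975 and 861 in PTFC. On the log2 scale these became 8.57, 8.82 and 8.68 in ND, 9.60, 13.32 and 13.18 in HFD16, 14.21, 14.87 and 12.16 in HFD24 and 11.17, 9.84 and 9.55 in PTFC. The ND arrays were close together, whereas the HFD16 arrays spread widely, and all PTFC arrays were above ND and below HFD24. Ubd rose 33.3-fold in HFD24 over ND (log2 5.06 ± 0.86, adjusted p = 0.00222) and 10.1-fold in HFD16 (log2 3.34 ± 0.86, adjusted p = 0.0196), the latter lost without ND replicate 1 or 2 or HFD16 replicate 2 or 3 (up to 0.0808). Without HFD24 replicate 3 the HFD24 difference was 57.6-fold, and the HFD16 difference was 23.5-fold without HFD16 replicate 1, 6.49-fold without HFD16 replicate 2 and 6.8-fold without HFD16 replicate 3. PTFC was 11.8-fold lower than HFD24 (log2 -3.56 ± 0.86, adjusted p = 0.035), a call lost without HFD24 replicate 1 or 2 or PTFC replicate 2 or 3, with an adjusted p up to 0.168, and 20.4-fold lower without HFD24 replicate 3. The difference of PTFC from ND, 1.50 ± 0.86, did not pass (adjusted p = 0.418).

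Isg15, the interferon-induced modifier that is joined to newly made proteins, read 9.04, 8.87 and 9.32 in ND, 10.58, 11.75 and 12.05 in HFD16, 11.35, 10.85 and 11.25 in HFD24 and 9.87, 9.86 and 9.64 in PTFC. Both diet groups lay above PTFC, and PTFC lay above ND, with no overlap of arrays. It rose 4.2-fold in HFD24 (log2 2.07 ± 0.30, adjusted p = 0.00114) and 5.19-fold in HFD16 (log2 2.38 ± 0.30, adjusted p = 0.000956), and it fell by 1.36 ± 0.30 in PTFC against HFD24 (adjusted p = 0.028), a call lost without any 1 of those 6 arrays, with an adjusted p up to 0.14. Usp18, which removes ISG15 and restrains the type I receptor, passed in no comparison with all arrays (0.70 ± 0.41 in HFD24 and 1.02 ± 0.41 in HFD16 against ND), its HFD16 arrays reading 10.19, 12.16 and 11.62.

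Guanylate-binding proteins are large GTPases that gather on the vacuoles of intracellular pathogens. Of 6 measured genes, 4 were higher in both diet groups (66.7%, against 10.0% of all genes in each). They were Gbp2, Gbp2b, Gbp3 and Gbp7, which with Gbp5 stand next to each other in 1 cluster. Gbp2 read 9.45, 9.95 and 9.24 in ND, 11.13, 13.98 and 13.51 in HFD16, 13.25, 12.77 and 12.34 in HFD24 and 11.71, 10.62 and 10.76 in PTFC. Every diet array was above every ND array, and the PTFC arrays lay between ND and HFD24. It rose 9.44-fold in HFD24 (log2 3.24 ± 0.57, adjusted p = 0.00241) and 10.0-fold in HFD16 (log2 3.33 ± 0.57, adjusted p = 0.00337). Without HFD16 replicate 1 the latter was 4.20, and the HFD16 differences of Gbp2b, Gbp3 and Gbp7 went from 3.04, 2.93 and 2.60 to 3.83, 3.78 and 3.23.

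Gbp3 read 8.25, 8.43 and 9.10 in ND, 12.11, 11.35 and 11.13 in HFD24 and 10.15, 9.82 and 9.84 in PTFC, and rose by 2.94 ± 0.54 in HFD24 (adjusted p = 0.00295). Gbp7 rose by 2.08 ± 0.46 (adjusted p = 0.00794). Gbp2b, the gene once named Gbp1, rose by 2.96 ± 0.69 (adjusted p = 0.0107), and lost its call without ND replicate 1 or HFD24 replicate 1, with an adjusted p up to 0.0557. Gbp5, in the same cluster, which promotes inflammasome assembly, did not pass (0.63 ± 0.30 in HFD24, 0.75 ± 0.30 in HFD16). Gbp11, outside the cluster, had a negative difference in both, -0.60 ± 0.42 and -0.85 ± 0.42, that did not pass either.

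Against HFD24, no Gbp gene passed in PTFC, although 5 of 6 differences were negative. They were -1.76 ± 0.57 for Gbp2 (adjusted p = 0.0815), -1.60 ± 0.54 for Gbp3 (adjusted p = 0.0915), -1.54 ± 0.46 for Gbp7 (adjusted p = 0.0628) and -1.41 ± 0.69 for Gbp2b (adjusted p = 0.232). At an unadjusted p under 0.05 limma gave Gbp2, Gbp3, Gbp5 and Gbp7 lower, against 12.3% of all genes. PTFC replicate 1 was the highest PTFC array for Gbp2, Gbp2b, Gbp3 and Gbp7, at 10.56 for Gbp7 against 9.25 and 9.35.

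Immunity-related GTPases attack the vacuoles of parasites such as Toxoplasma, and the Irgm members and Igtp keep the others in check on host membranes. Of 5 measured, 3 were higher in HFD24 and 4 in HFD16. Igtp read 11.60, 11.64 and 12.36 in ND, 12.75, 15.30 and 15.63 in HFD16, 14.55, 13.99 and 14.29 in HFD24 and 13.82, 11.74 and 12.21 in PTFC. The HFD16 and HFD24 arrays were all above ND, and PTFC replicate 1 was far above the other PTFC arrays. The difference was 2.41 ± 0.64 in HFD24 (adjusted p = 0.0212) and 2.69 ± 0.64 in HFD16 (adjusted p = 0.0143). The former was lost without ND replicate 1 or 2 or HFD24 replicate 1 or 3 (adjusted p up to 0.0779), and the latter without ND replicate 1 or HFD16 replicate 2 or 3 (up to 0.0624). Without HFD16 replicate 1 the latter was 3.60.

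Ifi47, another GTPase of this family, read 10.90, 11.26 and 10.08 in ND, 12.06, 14.52 and 14.28 in HFD16, 13.40, 12.76 and 12.86 in HFD24 and 11.84, 11.22 and 11.40 in PTFC. No diet array overlapped ND. It rose by 2.26 ± 0.51 in HFD24 (adjusted p = 0.00911) and by 2.87 ± 0.51 in HFD16 (adjusted p = 0.00394). Without HFD16 replicate 1 the latter was 3.65.

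Iigp1, an effector of the family, passed in HFD16 (1.63 ± 0.35, adjusted p = 0.00926) and not in HFD24 (0.70 ± 0.35, adjusted p = 0.186), and the difference between these groups did not pass (-0.93 ± 0.35, adjusted p = 0.425). Irgm1 was higher in both, by 1.39 ± 0.29 in HFD16 (adjusted p = 0.00785) and 1.04 ± 0.29 in HFD24 (adjusted p = 0.0245). The latter call was lost without ND replicate 1, ND replicate 2 or any 1 HFD24 array, with an adjusted p up to 0.0946. Irgm2, whose promoter fragment nearly equals that of Igtp, read 12.07, 12.17 and 12.60 in ND and 13.60, 12.96 and 13.14 in HFD24, which did not overlap, and the difference of 0.95 ± 0.36 did not pass (adjusted p = 0.0859). No gene of the family passed in PTFC against HFD24, where all 5 differences were negative, from -1.69 ± 0.64 for Igtp to -0.66 ± 0.35 for Iigp1. At an unadjusted p under 0.05 limma gave 4 of them lower, against 12.3% of all genes.

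Mx proteins are dynamin-like GTPases that trap viral components. Mx1, a nuclear inhibitor of influenza virus that many laboratory strains carry in a broken form, read 5.73, 6.02 and 6.14 in ND, 7.20, 9.26 and 8.72 in HFD16, 8.81, 7.94 and 8.17 in HFD24 and 7.03, 7.44 and 6.67 in PTFC. It was among the dimmest 25% of genes in ND and not in HFD24, and no diet array overlapped ND. It rose by 2.34 ± 0.41 in HFD24 (adjusted p = 0.00249) and by 2.43 ± 0.41 in HFD16 (adjusted p = 0.00336), and the PTFC difference from HFD24, -1.26 ± 0.41, did not pass (adjusted p = 0.0859). Without HFD16 replicate 1 its HFD16 difference was 3.03. Mx2, its cytoplasmic neighbour, passed in no comparison (0.32 ± 0.25 in HFD24).

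The OAS family is named for those of its members that make short oligoadenylates, which switch on RNase L. Of 9 genes 2 were higher in HFD24 (22.2%, against 10.0% of all genes). None was higher in HFD16 (2 at an unadjusted p under 0.05 in limma, against 17% of all genes). In PTFC 1 was lower than in HFD24 (11.1%, against 3.04% of all genes). Oas2 read 9.55, 9.93 and 9.97 in ND and 11.01, 11.03 and 10.76 in HFD24, which did not overlap, and rose by 1.12 ± 0.23 (adjusted p = 0.00623). Oas1c differed by 0.64 ± 0.21 (adjusted p = 0.0498), which lies at the threshold and was lost in 10 of 12 fits that left out an array, and it was lower in PTFC by 0.85 ± 0.21 (adjusted p = 0.0364), which was lost without HFD24 replicate 1 or 2 or any 1 PTFC array (up to 0.142). The remaining 7 ranged from -0.24 ± 0.17 for Oas1b to 0.52 ± 0.21 for Oasl2. Oas3, with the ISRE core shown above, read 13.33, 13.42 and 13.05 in ND, 12.67, 13.77 and 13.11 in HFD16, 13.15, 12.80 and 13.35 in HFD24 and 12.89, 13.37 and 13.03 in PTFC, and the 4 groups overlapped. Oas1b, Oas1c, Oas1f, Oas1g and Oas1h are near copies in 1 cluster, so their probes may share signal, and a second, dimmer Oas1b probe gave 0.79 ± 0.23 in HFD16 (adjusted p = 0.0322) where the brighter gave -0.29 ± 0.17.

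IFIT proteins bind viral RNA and stop its translation, and 3 of 4 measured were higher in both diet groups. Ifit2 read 7.51, 7.63 and 8.59 in ND, 10.50, 10.07 and 9.46 in HFD24 and 9.02, 9.19 and 8.97 in PTFC, in separate ranges. It rose by 2.10 ± 0.36 in HFD24 (adjusted p = 0.00223). Ifit3b rose by 1.37 ± 0.31 (adjusted p = 0.00874) and Ifit1 by 1.08 ± 0.32 (adjusted p = 0.0311). The Ifit1 call in HFD24 was lost without any 1 ND array, HFD24 replicate 1 or HFD24 replicate 3, with an adjusted p up to 0.121, and in HFD16 without any 1 ND array, HFD16 replicate 2 or HFD16 replicate 3, up to 0.10. In PTFC against HFD24 no gene of the family passed, with differences from -0.95 ± 0.36 for Ifit2 to -0.29 ± 0.29 for Ifit1bl2. Without adjustment 3 were lower at p under 0.05 in limma, against 12.3% of all genes.

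IFITM proteins sit in membranes and hinder the entry of enveloped viruses. Here 3 of 7 were higher in each diet group (42.9%, against 10.0% of all genes). Ifitm2, Ifitm3 and Ifitm6 were higher than ND in HFD16, HFD24 and PTFC, in comparisons that share the ND arrays. Ifitm3 read 16.04, 16.10 and 16.20 in ND, 17.33, 17.45 and 17.69 in HFD16, 17.58, 17.39 and 17.48 in HFD24 and 17.37, 16.70 and 16.98 in PTFC. The ND arrays were close together and below all the rest. It rose by 1.37 ± 0.15 in HFD24 (adjusted p = 0.000296), by 1.37 ± 0.15 in HFD16 (adjusted p = 0.000517) and by 0.90 ± 0.15 in PTFC over ND (adjusted p = 0.0127), the last lost without ND replicate 1 or PTFC replicate 3 (up to 0.0646) and with median centring.

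Ifitm2 read 13.42, 13.99 and 13.74 in ND, 14.86, 14.69 and 14.96 in HFD24 and 15.00, 14.70 and 14.76 in PTFC. The HFD24 and PTFC arrays overlapped. It rose by 1.12 ± 0.16 in HFD24 over ND (adjusted p = 0.000929) and by 1.10 ± 0.16 in PTFC over ND (adjusted p = 0.00506).

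Ifitm6 read 5.69, 6.10 and 6.99 in ND, 7.55, 8.58 and 8.86 in HFD16, 9.86, 9.35 and 8.94 in HFD24 and 8.39, 8.43 and 7.81 in PTFC, and was among the dimmest 25% of genes in ND. HFD24 lay above HFD16 and PTFC on every array; all HFD24 arrays lay above all HFD16 arrays in 6.25% of all genes. It rose 8.72-fold in HFD24 (log2 3.12 ± 0.38, adjusted p = 0.000412), and PTFC was above ND by 1.95 ± 0.38 (adjusted p = 0.0205), a call lost without ND replicate 1 or 2 or any 1 PTFC array (up to 0.113). Its difference between HFD24 and HFD16, 1.05 ± 0.38, did not pass (adjusted p = 0.4). Ifitm7 was higher in PTFC than in HFD24 by 0.95 ± 0.24 (adjusted p = 0.0415), and its other, dim probe gave -0.19 ± 0.33. That call was lost when the probes were averaged, and in 8 of 12 fits that left out an array. Ifitm1, Ifitm5 and Ifitm10 passed in no comparison.

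The Ifi27 family encodes small hydrophobic proteins, and all 3 genes, neighbours in 1 cluster, were higher in HFD24, against 10.0% of all genes. Ifi27l2a read 10.59, 11.08 and 10.95 in ND, 12.00, 13.68 and 13.99 in HFD16, 13.89, 13.99 and 12.92 in HFD24 and 12.20, 12.36 and 11.30 in PTFC. The PTFC arrays lay below HFD24 and above ND. It rose 6.61-fold in HFD24 (log2 2.73 ± 0.45, adjusted p = 0.00198), and the fall in PTFC, -1.65 ± 0.45, lay at the threshold (adjusted p = 0.04996) and was lost in 10 of 12 fits that left out an array. In HFD16 Ifi27l2a rose by 2.35 ± 0.45 (adjusted p = 0.00561). Without HFD16 replicate 1 that difference was 2.96.

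Ifi27l2b read 10.76, 10.31 and 10.12 in ND, 13.46, 12.69 and 12.69 in HFD24 and 12.51, 12.57 and 11.92 in PTFC. Its PTFC arrays were far above those of ND. It rose by 2.55 ± 0.26 in HFD24 (adjusted p = 0.000208) and was higher in PTFC than in ND by 1.94 ± 0.26 (adjusted p = 0.00382). Ifi27 differed less, by 0.69 ± 0.19 in HFD24 (adjusted p = 0.0243), and lost its call without ND replicate 2 or any 1 HFD24 array (up to 0.108).

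The PYHIN genes Ifi202b, Ifi204, Ifi208, Ifi209, Ifi213 and Ifi214 encode relatives of DNA-sensing proteins and stand in 1 cluster. In HFD24, 3 of the 6 were higher (50.0%, against 10.0% of all genes). Ifi204, which rose by 2.10 ± 0.41 (adjusted p = 0.00434), read 5.17, 5.83 and 6.20 in ND, 8.73, 7.76 and 7.01 in HFD24 and 6.74, 7.41 and 7.11 in PTFC. The HFD24 arrays were above ND and overlapped those of PTFC. Ifi213 rose by 1.18 ± 0.33 (adjusted p = 0.0254) and Ifi209 by 1.10 ± 0.34 (adjusted p = 0.0379). Ifi213 lost its call without ND replicate 1, ND replicate 2 or HFD24 replicate 1 (up to 0.111), without normalization and with median centring, and Ifi209 without ND replicate 1 or 2 or HFD24 replicate 1 or 2 (up to 0.145). Ifi214, with the same ISRE core as Ifi213, read 4.56, 4.14 and 4.82 in ND and 4.69, 4.19 and 4.79 in HFD24, a difference of 0.05 ± 0.27 on a dim probe. None of the 6 passed in PTFC against HFD24, where limma gave 1 higher and 1 lower at an unadjusted p under 0.05, close to the 12.1% and 12.3% of all genes.

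Among the remaining antiviral effectors and sensors, Bst2 encodes tetherin, which holds budding virions at the cell surface. It read 16.39, 16.11 and 15.95 in ND, 17.11, 17.10 and 17.48 in HFD16, 17.43, 17.36 and 17.19 in HFD24 and 16.98, 16.21 and 16.13 in PTFC. PTFC replicate 1 was above the other PTFC arrays, and all 3 were below HFD24. It rose by 1.18 ± 0.20 in HFD24 (adjusted p = 0.00226) and fell by 0.89 ± 0.20 in PTFC against HFD24 (adjusted p = 0.0299). The latter was lost without any 1 HFD24 array, PTFC replicate 2 or PTFC replicate 3 (up to 0.158).

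Rsad2, which encodes the antiviral enzyme viperin, read 10.88, 11.15 and 10.84 in ND, 11.80, 11.82 and 11.17 in HFD24 and 10.95, 10.60 and 10.68 in PTFC. It did not pass for diet (0.64 ± 0.22, adjusted p = 0.0647) and was lower in PTFC than in HFD24 by 0.85 ± 0.22 (adjusted p = 0.043). Ifih1, the RNA sensor MDA5, rose by 0.88 ± 0.20 in HFD24 (adjusted p = 0.00889) and by 1.01 ± 0.20 in HFD16 (adjusted p = 0.00587). Isg20, an antiviral exonuclease, had 3 probes that disagreed: the brightest gave 0.29 ± 0.20 in HFD24 and another -0.79 ± 0.20 (adjusted p = 0.0189). Isg20l2 and Ifi44l passed in no comparison.

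Ifi30, the lysosomal thiol reductase that prepares antigens for MHC class II, read 12.35, 12.41 and 11.95 in ND, 13.19, 14.69 and 14.10 in HFD16, 14.82, 14.82 and 13.83 in HFD24 and 13.58, 13.07 and 12.85 in PTFC. No PTFC array overlapped HFD24 or ND. It rose by 2.26 ± 0.35 in HFD24 (adjusted p = 0.00153) and fell by 1.32 ± 0.35 in PTFC (adjusted p = 0.0452), the latter lost in 8 of 12 fits that left out an array. Rsad2 lost its PTFC call in 7 of them. Ifi35, a partner of Nmi, was higher in HFD16 (1.06 ± 0.25, adjusted p = 0.0124), a call lost without HFD16 replicate 3 (adjusted p = 0.0535), and did not pass in HFD24 (0.68 ± 0.25, adjusted p = 0.0718).

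**Figure D4:**
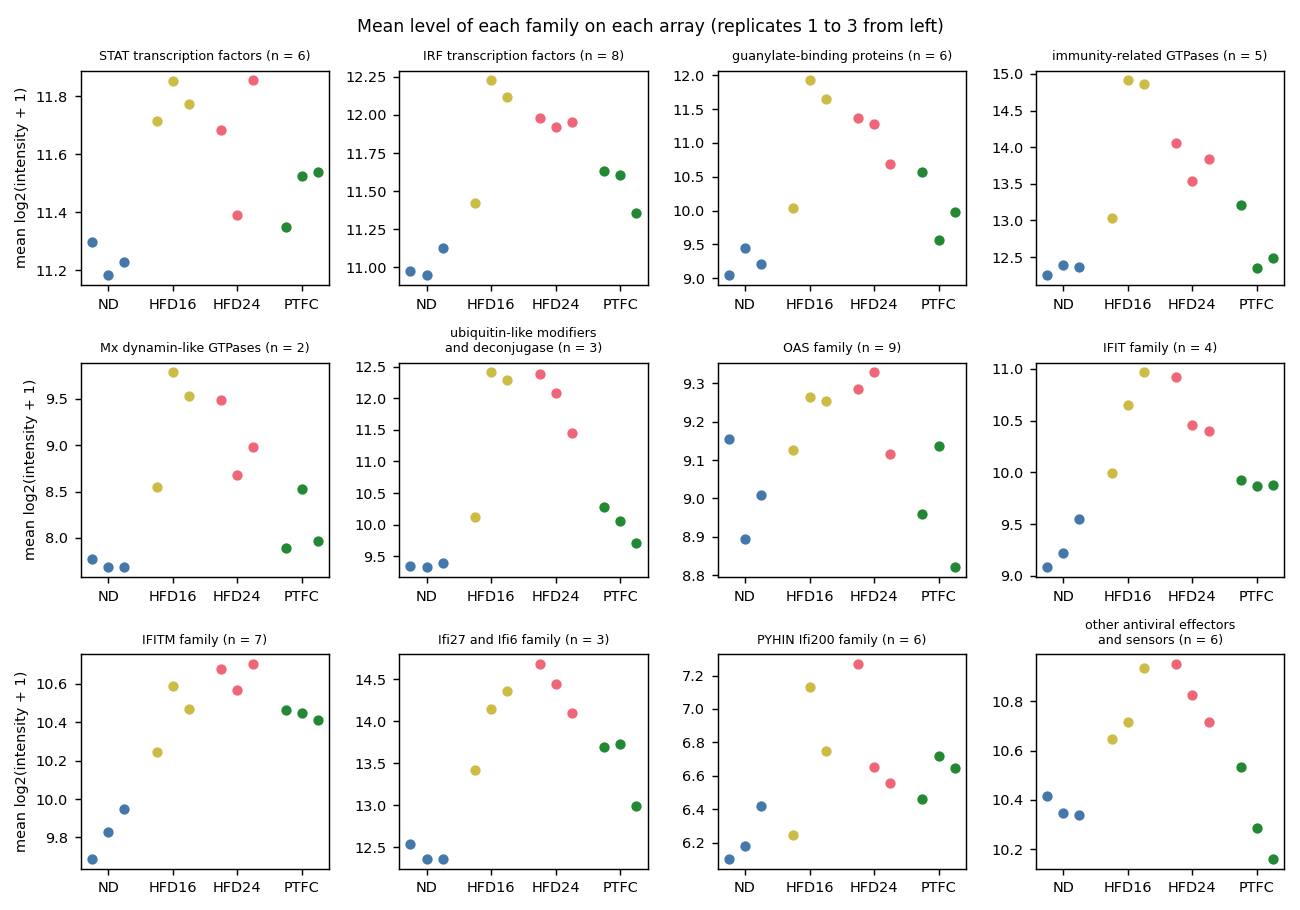
Mean level of each family, as log2(intensity + 1) (y axis, a scale per family), on each of the 12 arrays in the 4 groups (x axis); each point is the mean over the genes of the family on 1 array. The immunity-related GTPases, guanylate-binding proteins and ubiquitin-like modifiers separate ND from HFD24, with HFD16 replicate 1 below its group, whereas the OAS means of the groups overlap.

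Between the diet times, none of the 67 genes passed in HFD24 against HFD16, against 0.0367% of all genes (0.0157% higher and 0.0210% lower), and limma without adjustment gave 3 higher and 1 lower at p under 0.05, against 4.33% and 5.42% of all genes; a fit on these 6 arrays alone gave 0 too. The smallest adjusted p was that of Ifitm6, 0.4. In PTFC against ND, 2.33% of all genes passed, 1.04% higher and 1.28% lower. Of the 67 genes, 4 were higher (5.97%) and none lower: Ifitm2, Ifitm3, Ifitm6 and Ifi27l2b. This count was 2 without ND replicate 1 or PTFC replicate 3, 8 without ND replicate 3 and 10 without HFD16 replicate 1. In these fits, in that order, 0.335%, 0.299%, 3.23% and 3.42% of all genes passed. Over the 67 genes the median difference of PTFC from ND was 0.29, and in 22 of them all PTFC arrays lay above all ND arrays, against 10.0% of all genes. A test over all 4 groups passed for 34 of 67 genes, against 21.4% of all genes.

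The rest of the pathway was measured with lists of genes that share no symbol with the 67. Of 19 interferon genes listed, 6 were measured. Their mean was 6.10 to 6.41 on the 12 arrays, below 6.84, the limit of the dimmest 25% of genes, so a change could be missed. Of the 6, 1 was higher in HFD24 than in ND (16.7%, against 10.0% of all genes), Ifnk, a type I interferon of skin (0.61 ± 0.20). None passed in HFD16 or with PTFC. Ifng, which encodes interferon gamma, differed by -0.02 ± 0.19 and Ifnb1, which encodes interferon beta, by -0.22 ± 0.18 in HFD24, neither of which passed. Of 9 receptor and kinase genes, 3 were higher in HFD24 (33.3%, against 10.0% of all genes) and none lower. They were Il10rb, a chain of the interferon lambda and interleukin-10 receptors (1.66 ± 0.26), Ifngr1, the ligand-binding chain for interferon gamma (1.01 ± 0.23), and the kinase gene Jak2 (0.62 ± 0.16). In PTFC against HFD24, 2 were lower (22.2%, against 3.04% of all genes), Ifngr1 (-0.84 ± 0.23) and Jak2 (-0.62 ± 0.16). Of 14 genes for inhibitors of the pathway, 1 was higher in HFD24, the phosphatase gene Ptpn6 (0.81 ± 0.23), a share of 7.14% that is below the 10.0% of all genes, and none passed with PTFC. Socs1, an inhibitor of JAK kinases that interferon induces, differed by 0.14 ± 0.22 and did not pass.

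Of 18 sensors and adaptors of foreign nucleic acid, 8 were higher (44.4%, against 10.0% of all genes) and none lower in HFD24. The largest was Zbp1, a sensor of Z-form nucleic acid that can start cell death (3.12 ± 0.54), followed by Tlr7, the receptor of single-stranded RNA (2.00 ± 0.42). Ddx58, the RNA sensor RIG-I, rose by 1.25 ± 0.25 and Tlr3, the receptor of double-stranded RNA, by 0.95 ± 0.19. In PTFC against HFD24 Tlr3 (-0.89 ± 0.19) and the DNA exonuclease gene Trex1 (-0.81 ± 0.21) were lower, 11.1% against 3.04% of all genes. In HFD16, 8 were higher than in ND (44.4%, against 10.0% of all genes). The 2 lower, Sting1 (-1.08 ± 0.32) and Tlr8 (-0.86 ± 0.20), were 11.1%, near the 8.11% of all genes.

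Of 35 other interferon-stimulated genes measured, 20 were higher in HFD24 (57.1%, against 10.0% of all genes) and 3 lower (8.57%, near the 8.29% of all genes). Ly6e rose by 2.39 ± 0.32, Slfn2 by 2.61 ± 0.36 and Cmpk2, the neighbour of Rsad2, by 1.62 ± 0.31, whereas Xaf1 fell by 1.16 ± 0.24, Tor3a by 1.28 ± 0.27 and Slfn1 by 0.58 ± 0.19. In PTFC against HFD24 5 were lower (14.3%, against 3.04% of all genes) and none higher. Among the lower were Slfn2 (-1.49 ± 0.36), Cmpk2 (-1.15 ± 0.31) and Sp100 (-0.81 ± 0.18).

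Of 18 chemokine and antigen-processing genes that interferon gamma induces, 12 were higher in HFD24 (66.7%) and 16 in HFD16 (88.9%). The share of all genes was 10.0% in each, and none of the 18 was lower. Acod1, the itaconate-producing enzyme of activated macrophages, rose by 5.48 ± 0.73 in HFD24, the T cell attractant Cxcl9 by 4.76 ± 0.78, the immunoproteasome subunit Psmb9 by 2.72 ± 0.45 and the peptide transporter Tap1 by 1.74 ± 0.33. In PTFC against HFD24 4 were lower (22.2%, against 3.04% of all genes): Acod1 (-3.34 ± 0.73), Psmb9 (-1.87 ± 0.45), Tap1 (-1.51 ± 0.33) and Psme1 (-0.93 ± 0.20). The mean of the 18 genes was 9.50 to 9.70 on the ND arrays, 10.97 to 11.33 on the HFD24 arrays and 9.82 to 10.59 on the PTFC arrays, with HFD16 replicate 1 at 10.43 against 12.13 and 11.58.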

How the data were processed

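Total RNA from mouse liver was hybridised to single-colour arrays, 3 per group. The authors deposited linear intensity values of 26423 probes; background correction, scaling and any averaging of spots are not given in the sources used here, although the values show 1 scaling step per array. Of these, 21876 probes carry 1 gene symbol in the platform annotation, none several, and 4547 are unnamed here. Values below 0 (291) were set to 0, log2(intensity + 1) was quantile normalized over all probes, and the brightest probe of each of 19084 genes was kept. Group means over the 12 arrays were fitted in R 4.3.3 with the package limma 3.58.1 (eBayes, allowing the variance to follow mean intensity), two-sided, with Benjamini-Hochberg adjustment over all genes. The number of arrays limits the precision. The fit was checked on simulated data.

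Genes were named by family: each of the 67 may be named, and other pathway genes come from fixed lists. The genes and lists were chosen with earlier results of these data known. Replicate numbers were checked for pairing: over 18 pairs of same-numbered arrays the correlation of deviations from group means was -0.29 to 0.17, above 0.1 in 4. The 3 pairs of ND and HFD16 were among these (0.11 to 0.14), whereas no other pair of groups had all 3 above 0.1, so no block entered the fit, and pairing of ND with HFD16 cannot be told. Alternatives varied the pseudocount, normalization, probe choice, dim genes, prior, block, groups fitted and each array. Promoter windows come from RefSeq (GRCm38.p6), searched with Python 3.11.15.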

Additional observations from a re-analysis of the deposited data

How the results depend on the processing

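No difference that passed changed sign under any alternative that was run, and the diet counts moved by less than 1.5 times except with the scaling step as a covariate, an alternative added after seeing the data. With that covariate 6 of the 67 genes passed in HFD24 against ND, 1 in HFD16 against ND, 0 in PTFC against ND and 18 in the test over 4 groups; the standard errors grew and the median difference shrank, and the step itself differed between ND and the other groups. Over all genes, 1.89% passed with that covariate in HFD24 against ND, 0.519% in HFD16 against ND and 0.131% in PTFC against ND. Fitting only the 2 groups compared gave 22 genes for PTFC against HFD24 and 8 for PTFC against ND. In those fits 9.15% and 2.79% of all genes passed. With the replicate block, PTFC against HFD24 gave 3 genes in place of 11, with 1.76% of all genes in place of 5.98%. The other counts moved by less than 1.5 times. Leaving out 1 array at a time gave 23 to 33 genes for HFD24 against ND, 22 to 40 for HFD16 against ND, 0 to 21 for PTFC against HFD24, 2 to 10 for PTFC against ND, 24 to 41 over the 4 groups and 0 throughout for HFD24 against HFD16. For PTFC against HFD24 the genes with a call kept a median of 91.0% to 113% of their difference in these fits; the cause of the lost calls was not tested further. Without normalization the median of all genes moved from -0.06 to -0.23 in HFD24 against ND, from -0.03 to -0.22 in HFD16 against ND and from 0.01 to 0.24 in PTFC against HFD24, and the share of higher genes among all that passed went from 54.7% to 41.4%, from 55.3% to 34.6% and from 49.2% to 90.4%. Median centring gave 37.2% for PTFC against HFD24. Of the differences of single genes, 73 in HFD24 against ND, 78 in HFD16 against ND and 84 in PTFC against HFD24 lost their call under an alternative, counted per gene and alternative, and 17, 28 and 36 gained one. Dim probes and 3 arrays per group limit what could be detected.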
